A study of Rattus norvegicus with 42 samples.

Results

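Fos (ENSRNOG00000008015), Jun (ENSRNOG00000026293), Junb (ENSRNOG00000042838), Egr1 (ENSRNOG00000019422) and Myc (ENSRNOG00000004500) are immediate early genes, here followed in GH4C1 cells after a change of medium. They were chosen by name, as the rows with these Ensembl identifiers, and all 5 were among the 13776 genes counted. GH4C1 is an established somatolactotroph line from the rat pituitary. Wild-type cells (WT) were compared with cells labelled Neat1 -/- (KO), edited with CRISPR-Cas9 to remove Neat1, a long non-coding RNA. Both were given fresh medium that contained horse serum and fetal calf serum, received no other treatment per the labels, and were harvested at steps of 4 h, the first 10 h (T10) and the last 34 h (T34) later. The 7 times and 2 genotypes gave 14 groups with 3 libraries each, 42 libraries in all. The study asked about rhythmic expression without Neat1. Whether the KO cells are 1 clone or several is not given in the sources used here, so the deletion and any other difference between the lines cannot be told apart. The sample titles also do not say whether WT and KO libraries were cultured, prepared and sequenced together. Any difference in handling between the genotypes cannot be told apart from the deletion either. Nothing in the labels says that replicates came from separate cultures, so the p-values may measure technical spread only.

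Immediate early genes are switched on within minutes by growth factors, serum or calcium and cAMP signals, through transcription factors that already sit in the cell, such as serum response factor with its Elk partners and CREB. Their transcripts are short-lived and usually fall back within a few hours, so an acute burst would lie before the first harvest at T10. Such a burst was not measured here. Fos, Jun and Junb proteins pair as AP-1, Egr1 is a zinc-finger factor, and Myc pairs with Max to drive growth genes; in pituitary cells such factors link hormone and growth factor signals to hormone gene expression.

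Proximal promoters were taken from RefSeq for the 2 of the 5 genes that had an entry, Junb and Egr1, to show which elements of that kind lie next to genes followed here. Each sequence is the 250 bases before the transcription start in build GRCr8, on the plus strand: Junb at chr19:40080876-40081125 and Egr1 at chr18:26736828-26737077. Capitals mark matches to the motifs searched on both strands, which were the CArG box bound by serum response factor, TGACG (the core of a cAMP response element), TGANTCA (AP-1 site), CACGTG (E-box), GCGNGGGCG (Egr site), CCAAT and TATAAA.
Junb: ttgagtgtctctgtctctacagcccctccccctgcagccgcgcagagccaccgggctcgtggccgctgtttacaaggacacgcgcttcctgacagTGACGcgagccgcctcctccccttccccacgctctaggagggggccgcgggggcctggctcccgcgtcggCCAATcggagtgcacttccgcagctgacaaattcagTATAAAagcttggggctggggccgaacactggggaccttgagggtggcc
Egr1: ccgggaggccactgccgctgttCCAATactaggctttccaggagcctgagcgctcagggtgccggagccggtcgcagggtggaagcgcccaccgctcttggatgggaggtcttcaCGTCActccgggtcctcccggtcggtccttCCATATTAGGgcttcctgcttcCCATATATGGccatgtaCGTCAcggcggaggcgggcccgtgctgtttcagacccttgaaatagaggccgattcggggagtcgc
Junb had 1 TGACG, at position -155 from the start, 1 CCAAT at -85 and 1 TATAAA at -49. Egr1 had 2 CArG boxes, at -105 and -83, and 2 TGACG matches on the reverse strand, at -135 and -66, with 1 CCAAT at -228. Among 33469 windows of the same length in the table, 1.5% held a CArG box, 18.2% a TGACG, 34% a CCAAT and 12.9% a TATAAA. No AP-1 site, E-box or Egr site was in either window, against 6.34%, 5.59% and 4.29% of all windows. These matches describe letters and not binding.

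Libraries held 34.5 to 68.8 M counts (M, mega). WT T34 replicate 1 stood apart: its correlation of log2 levels with the other replicates of its group was 0.919 and 0.935, against 0.987 to 0.995 for all other pairs of replicates. Differences at T34 that it moves are given with and without it. The 14 groups share an estimate of the spread of each gene, so this library also enters the standard errors at other times. For a gene where it lies far from its replicates, it can thus keep differences at other times from being called. In KO, 2 genes that are not members took 17.6 to 21.2% of all counts, against 0.0308 to 0.335% in WT. Levels are CPM, counts brought to one library size, after TMM scaling, which sets the typical gene equal between libraries. With plain library totals the median log2 difference of all genes between KO and WT moved to -0.31, from -0.01. Neat1 itself and pituitary marker genes were not analysed here, so genotype and cell type rest on the labels.

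All 5 genes differed between the genotypes when the 7 times were averaged. This says little about them as a group, since 88.1% of the 13776 genes also passed the test (edgeR, adjusted p under 0.05). Fos was 2.65-fold higher in KO (log2 1.41, SE 0.07, edgeR adjusted p = 5.28e-19), Egr1 was 1.60-fold higher (log2 0.68, SE 0.18, adjusted p = 6.94e-04) and Junb 1.14-fold higher (log2 0.19, SE 0.03, adjusted p = 1.08e-05). Jun was 1.46-fold lower (log2 -0.54, SE 0.05, adjusted p = 6.81e-11) and Myc 1.43-fold lower (log2 -0.51, SE 0.09, adjusted p = 5.28e-06). Fos and Jun, which pair with each other, thus differed in opposite directions. With library totals Junb turned to lower in KO (log2 -0.11, adjusted p = 0.00318), and the other 4 genes kept their direction and their call. Totals that leave out the genes most raised in KO (chosen after seeing the data) kept Junb higher (0.19, adjusted p = 3.74e-06). Without WT T34 replicate 1 the log2 differences were 1.42 for Fos, 0.84 for Egr1, 0.18 for Junb, -0.49 for Jun and -0.40 for Myc, all still called (edgeR, adjusted p up to 9.95e-06). In RNA from whole cultures, a change in each cell and a change in the share of cells that express a gene cannot be told apart.

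**Figure D1:**
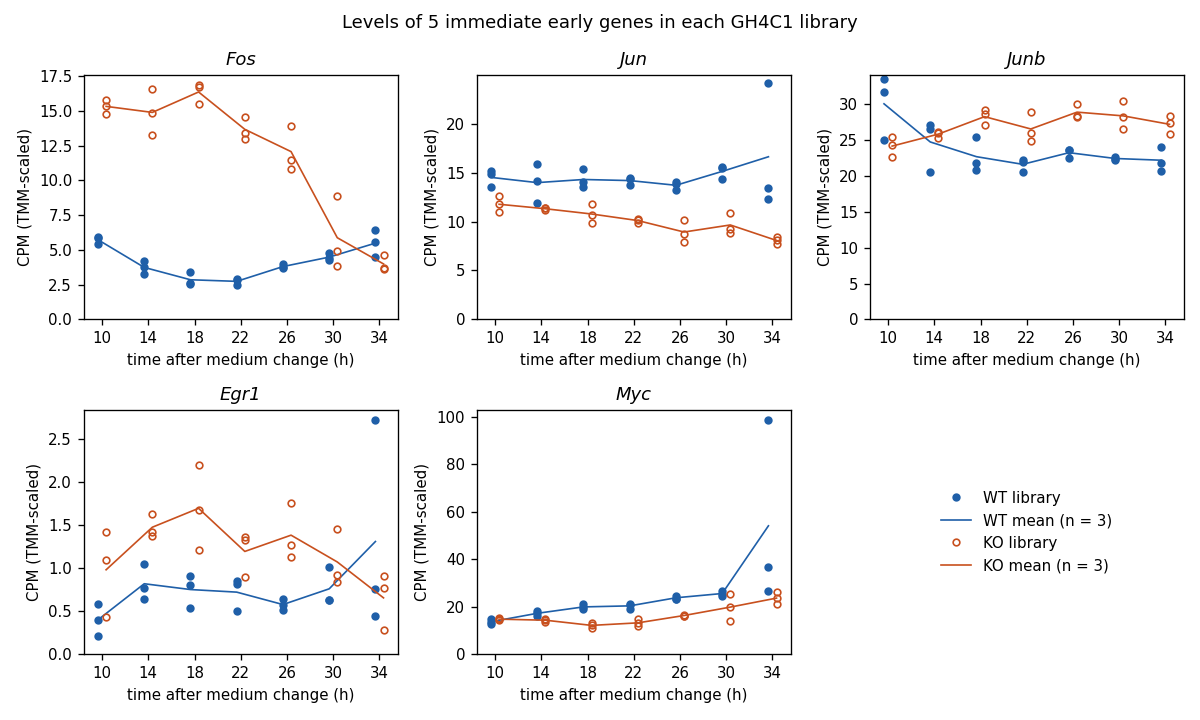
Level of each gene (y axis, CPM after TMM scaling) against time after the medium change (x axis, h). Each point is a library, filled for WT and open for KO, and lines join the means of 3 libraries. Fos in KO lay between 10.8 and 16.9 CPM up to T26 and between 3.66 and 4.65 CPM at T34, and WT T34 replicate 1 is the single high point for Jun, Egr1 and Myc.

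Fos, the classic serum-induced subunit of AP-1, had the largest difference. In WT the libraries held 5.84, 5.92 and 5.43 CPM at T10, then 3.28, 3.76 and 4.19 at T14, and 3.41, 2.61 and 2.55 at T18. At T22 they held 2.91, 2.47 and 2.84 CPM, at T26 3.77, 3.69 and 3.96, at T30 4.78, 4.40 and 4.27, and at T34 6.42, 5.57 and 4.48. WT Fos was therefore high at both ends of the series and low in its middle, and its T18 and T22 libraries did not overlap with those of T10. Against T10 the log2 difference was -1.01 at T18 (SE 0.18, edgeR adjusted p = 2.90e-04) and -1.07 at T22 (SE 0.18, adjusted p = 8.93e-05). At T34 the difference from T10 was -0.06 (SE 0.18, adjusted p = 0.810), and -0.18 without WT T34 replicate 1 (adjusted p = 0.490).

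In KO, Fos was high from T10 to T26, through the times at which WT was lowest. The KO libraries held 15.8, 14.8 and 15.4 CPM at T10, 13.2, 14.9 and 16.5 at T14, and 16.7, 15.5 and 16.9 at T18. They held 13.0, 13.4 and 14.6 CPM at T22 and 10.8, 13.9 and 11.5 at T26. All 15 of these libraries lay above all 21 WT libraries, whose highest value was 6.42 CPM.

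By T34 Fos in KO had come down to the WT level. At T30 the KO libraries held 8.87, 3.81 and 4.95 CPM, so that replicate 1 stood at 2.02 times the mean of the other 2. At T34 they held 4.65, 3.66 and 3.67 CPM, below or within the WT range. Against T10, the log2 change of Fos in KO was -1.39 at T30 (SE 0.18, edgeR adjusted p = 8.04e-07) and -1.94 at T34 (SE 0.18, adjusted p = 7.56e-10). The T34 change was the 20th most negative of the 13776 genes. In the order of the 14 group means of Fos, KO T26 (12.1 CPM) and KO T30 (5.88 CPM) were the only neighbours whose libraries did not overlap, with 12 of 13 neighbouring pairs overlapping.

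The difference of Fos between the genotypes thus depended on the time. KO against WT was 2.67-fold at T10 (log2 1.42, SE 0.18, edgeR adjusted p = 2.92e-08), 5.74-fold at T18 (log2 2.52, SE 0.19, adjusted p = 4.03e-13) and 3.17-fold at T26 (log2 1.67, SE 0.18, adjusted p = 1.75e-09). At T30 it was 1.31-fold and not called (log2 0.38, adjusted p = 0.0539), and without KO T30 replicate 1 the log2 difference was -0.04 (adjusted p = 0.829). At T34 Fos was lower in KO (log2 -0.46, SE 0.18, adjusted p = 0.0267), with overlapping libraries. Without WT T34 replicate 1 that difference was -0.34 and no longer called (adjusted p = 0.105), and the call was also lost without WT T34 replicate 2 or KO T34 replicate 2 or 3, and in a fit of only the libraries compared (adjusted p = 0.155). The interaction of genotype and time, a test with 6 degrees of freedom, gave an adjusted p of 3.28e-10 for Fos, the 45th smallest p of all genes, and 8.31e-11 without WT T34 replicate 1. The change of the KO effect from T22 to T34, a contrast added after the counts were seen, was -2.78 (SE 0.26, adjusted p = 6.62e-09), the 8th smallest p of all genes, and -2.66 without WT T34 replicate 1. From T10 to T22 the effect grew by 0.90 (SE 0.25, adjusted p = 0.0239; up to 0.0727 when any of 5 single libraries was left out).

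**Figure D2:**
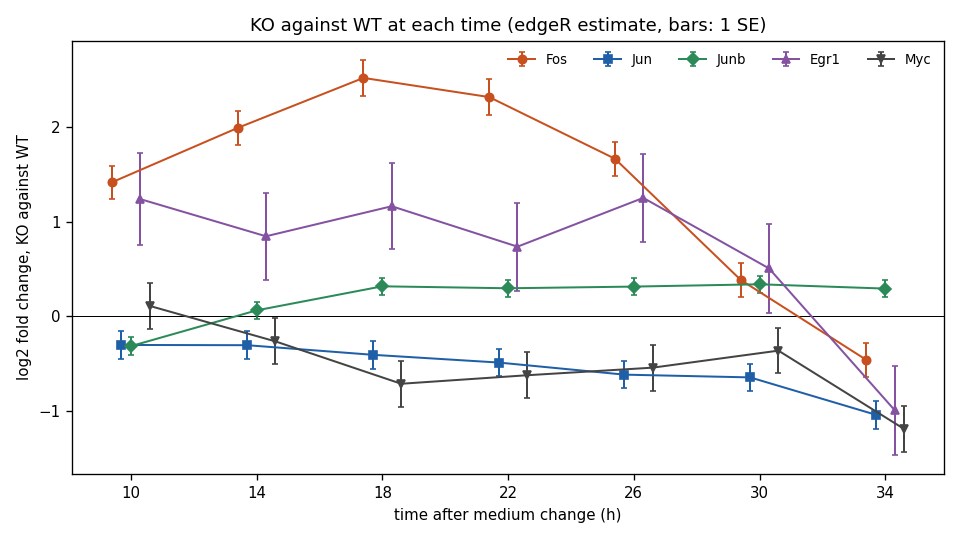
Log2 fold change of KO against WT (y axis) at each time after the medium change (x axis, h). Points are edgeR estimates from 3 libraries a group with TMM scaling and bars are 1 SE. Fos reached 2.52 at T18 and -0.46 at T34, while Jun lay below 0 at all 7 times; the Junb points at T14, T22 and T26 turn negative with library totals.

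Jun, the main partner of Fos in AP-1, was lower in KO. The WT libraries held 14.9, 15.1 and 13.5 CPM at T10 and the KO libraries 11.8, 10.9 and 12.6. At T34 the WT libraries held 24.2, 13.4 and 12.3 CPM and the KO libraries 8.10, 8.39 and 7.71. The genotypes did not overlap at any of the 7 times, and 5 of the 7 differences passed the test, all lower in KO. The size ran from log2 -0.30 at T10 (SE 0.14, edgeR adjusted p = 0.0615, not called) and -0.31 at T14 (adjusted p = 0.0598, not called) to -0.62 at T26 (SE 0.15, adjusted p = 4.16e-04) and -1.04 at T34 (SE 0.15, adjusted p = 3.21e-07). In edgeR fits of only the libraries compared, T10 (-0.30, adjusted p = 0.00769) and T14 (-0.30, adjusted p = 0.0249) were called. WT T34 replicate 1 held 1.88 times the mean of the other 2, and without it the T34 difference was -0.67 (adjusted p = 3.80e-07).

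Jun in WT did not pass the test of change over the 7 times (edgeR adjusted p = 0.628). In KO it fell from T10 to T34 (log2 -0.54, SE 0.15, adjusted p = 0.00397), and the test over all 7 times gave an adjusted p of 0.0306 (0.0933 with library totals, and up to 0.0964 without any of 6 single libraries). The interaction had an adjusted p of 0.0411 for Jun, and 0.102 with library totals; leaving out any of 22 single libraries also lost the call, at adjusted p up to 0.110. All 7 WT group means (13.7 to 16.6 CPM) lay above all 7 KO group means (8.07 to 11.8 CPM).

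Junb, an AP-1 subunit that in many settings restrains Jun, was higher in WT at T10 and, with TMM scaling, higher in KO from T18 on. At T10 the WT libraries held 33.4, 31.7 and 25.01 CPM and the KO libraries 25.5, 24.4 and 22.6. From T18 on, WT libraries lay between 20.6 and 25.4 CPM and the KO libraries between 24.8 and 30.4, with no overlap at any one time. In WT, Junb fell against T10 at T18, T22, T26, T30 and T34, with log2 changes of -0.37 to -0.48 (at T22 -0.48, SE 0.09, edgeR adjusted p = 3.92e-04). The T34 change was -0.39 without WT T34 replicate 1 (adjusted p = 0.00225). The first of the later times, T14, was not called (-0.28, adjusted p = 0.138), and in KO no time differed from T10 by the test (values 0.10 to 0.26, edgeR), though with library totals T30 (0.26, adjusted p = 0.0393) and T34 (0.23, adjusted p = 0.0438) passed. In an edgeR fit of the 21 KO libraries alone, T26 (0.25, adjusted p = 0.00980), T30 (0.24, adjusted p = 0.00507) and T34 (0.18, adjusted p = 0.0165) passed. In that fit T14, T18 and T22 did not pass, and the test over the 7 times did (adjusted p = 0.0129).

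KO against WT was therefore of either sign for Junb. It was -0.32 at T10 (SE 0.09, edgeR adjusted p = 0.00317), 0.06 at T14 (adjusted p = 0.556) and 0.29 to 0.34 from T18 to T34, called at each of these 5 times. The T34 call held without WT T34 replicate 1 (0.24, adjusted p = 0.0261) and was lost in a fit of only the libraries compared (0.29, adjusted p = 0.122). With library totals the T10 difference was -0.63 (adjusted p = 2.74e-07), T14 turned to -0.25 (adjusted p = 0.0152), and the 5 later values lay between -0.02 and 0.07, none called. With totals that leave out the genes most raised in KO, the difference was -0.32 at T10 and 0.06 at T14. From T18 to T34 it then lay between 0.30 and 0.38, called at each of these times. Whether Junb was called higher in KO late in the series thus depends on the scaling, here on whether those genes enter the totals. The change of the KO effect does not: from T10 to T22 it was 0.61 (SE 0.13, adjusted p = 0.00258) with TMM and 0.62 with library totals, and the interaction gave adjusted p = 7.56e-04 and 3.17e-04 (TMM without WT T34 replicate 1: 2.03e-04).

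Egr1, the zinc-finger factor with 2 CArG boxes in the window printed above, was near the limit of these libraries. Its counts were 10 to 125 in WT and 16 to 97 in KO. The lowest, WT T10 replicate 3 with 10 counts, has a 95% Poisson interval of 4.80 to 18.4 counts (counting error only). At T10 the WT libraries held 0.400, 0.586 and 0.216 CPM and the KO libraries 1.42, 1.09 and 0.434, which overlap. At T18 they held 0.801, 0.915 and 0.543 CPM in WT and 1.68, 2.20 and 1.21 in KO, which do not. KO was called higher at T10 (log2 1.24, SE 0.48, edgeR adjusted p = 0.0239), T18 (1.16, SE 0.46, adjusted p = 0.0248) and T26 (1.25, SE 0.47, adjusted p = 0.0184). All 3 calls are lost with library totals, at 0.86 to 0.94, and each is lost when any of 4, 2 and 2 single libraries, in that order, is left out (adjusted p up to 0.147). The differences at T14 (0.85, adjusted p = 0.0989), T22 (0.74, adjusted p = 0.158) and T30 (0.51, adjusted p = 0.333) were not called. In edgeR fits of only the libraries compared, T14 (0.85, adjusted p = 0.0106) and T22 (0.74, adjusted p = 0.0295) were called, and T30 was not (adjusted p = 0.171).

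At T34 the order of Egr1 turned on 1 library. The WT libraries held 2.72, 0.450 and 0.764 CPM and the KO libraries 0.767, 0.916 and 0.285. KO against WT was -0.99 (SE 0.47, edgeR adjusted p = 0.0663), and 0.14 without WT T34 replicate 1 (adjusted p = 0.776). The change of the KO effect from T22 to T34 was -1.73 (SE 0.66, adjusted p = 0.0406) with that library and -0.60 (adjusted p = 0.446) without it. In WT the difference of T34 from T10 was 1.64 (SE 0.48, adjusted p = 0.00762) with it and 0.50 (adjusted p = 0.419) without it.

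Myc, the growth-promoting factor, rose over the series in WT. In KO its mean was lowest at T18 (12.2 CPM) and rose only after T22. In WT the libraries held 13.4, 14.8 and 12.9 CPM at T10, 21.3, 20.7 and 19.2 at T22, 26.8, 24.5 and 25.6 at T30 and 98.7, 26.8 and 36.9 at T34. In KO they held 15.5, 14.3 and 14.7 CPM at T10, 13.1, 12.5 and 10.9 at T18, 11.7, 15.0 and 13.0 at T22, 14.04, 25.6 and 20.02 at T30 and 26.4, 23.5 and 21.1 at T34. The genotypes overlapped at T10, and from T14 to T26 every KO library lay below every WT library of the same time. The KO T34 libraries lay at the height that WT had from T22 to T30.

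Against T10, WT Myc was higher at T26 (log2 0.80, SE 0.24, edgeR adjusted p = 0.0239), T30 (0.90, SE 0.24, adjusted p = 0.00790) and T34 (1.98, SE 0.25, adjusted p = 2.68e-07). Without WT T34 replicate 1, which held 3.10 times the mean of the other 2, the T34 value was 1.21 (adjusted p = 1.89e-08). In KO the T34 difference was 0.68 (SE 0.24, adjusted p = 0.0299), a call lost without any of the 3 KO T10 libraries or KO T34 replicate 1 or 2 (adjusted p up to 0.1004). The WT call at T26 was lost without any of 5 single libraries (adjusted p up to 0.0802). In a fit of the 21 WT libraries alone, WT T34 replicate 1 included, the WT calls at T26 (adjusted p = 0.122) and T30 (adjusted p = 0.0593) were lost. KO against WT was 0.11 at T10 (adjusted p = 0.700; -0.21 with library totals, adjusted p = 0.478), -0.71 at T18 (SE 0.24, adjusted p = 0.0109), -0.62 at T22 (SE 0.24, adjusted p = 0.0237), -0.54 at T26 (SE 0.24, adjusted p = 0.0459) and -1.19 at T34 (SE 0.24, adjusted p = 8.61e-05). The differences at T14 (-0.27, adjusted p = 0.333) and T30 (-0.36, adjusted p = 0.175) were not called. In edgeR fits of only the libraries compared, T14 was called (-0.26, adjusted p = 0.0130) and T30 was not (adjusted p = 0.0964). The T22 and T26 calls were lost without any of 3 and 8 single libraries (adjusted p up to 0.0913). The T34 value was -0.42 without WT T34 replicate 1 (adjusted p = 0.00583), and with all 3 WT libraries its call was lost in a fit of only the libraries compared (-1.19, adjusted p = 0.135). The interaction for Myc missed the threshold (adjusted p = 0.0627) and passed it without that library (adjusted p = 0.00455).

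**Figure D3:**
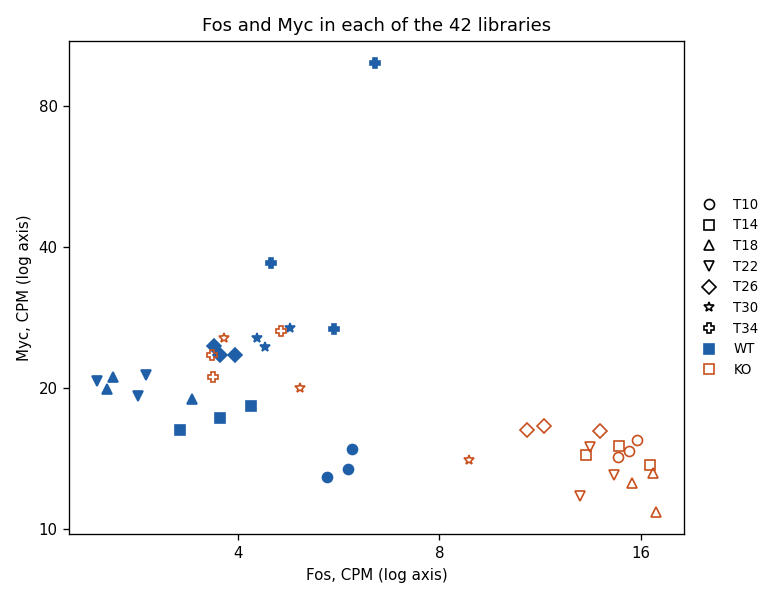
Level of Fos (x axis, CPM, log axis) against level of Myc (y axis, CPM, log axis) in each of the 42 libraries, with the marker for the time and filled symbols for WT, open ones for KO. The 15 KO libraries from T10 to T26 lie at the right with Fos at 10.8 CPM or more and Myc at 16.6 CPM or less; KO T30 replicate 1 (8.87 and 14.04 CPM) lies between them and the other KO libraries of T30 and T34.

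The plot of Fos against Myc shows the 2 replicates of KO at T30 with low Fos and high Myc, and replicate 1 with the reverse. Fos was 8.87 CPM and Myc 14.04 CPM in replicate 1, against 3.81 and 25.6 CPM in replicate 2 and 4.95 and 20.02 CPM in replicate 3. Replicate 1 held 2.02 times the mean Fos and 0.616 times the mean Myc of the other 2. For Jun and Junb the same comparison gave 0.876 and 1.11.

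Counts of the AP-1 genes can be set against each other within a library, where scaling has no part. These ratios are of reads and not of transcripts per length, so only their change is described. Fos per Jun was 1.31 ± 0.07 (SD, n = 3) in KO at T10, 1.35 ± 0.10 at T26, 0.630 ± 0.338 at T30 and 0.495 ± 0.071 at T34. In WT it was 0.395 ± 0.006 at T10, 0.193 ± 0.012 at T22 and 0.349 ± 0.076 at T34. At T34 the lowest KO library (0.437) still lay above the highest WT library (0.416), whereas Fos per Junb had crossed: 0.147 ± 0.020 in KO and 0.249 ± 0.055 in WT. Junb per Jun began at 2.06 ± 0.23 in KO and 2.06 ± 0.20 in WT at T10 and stood at 3.38 ± 0.30 and 1.48 ± 0.54 at T34, where the lowest KO library (3.08) lay above the highest WT library (1.80). WT T34 replicate 1, with 0.266 for Fos per Jun, 0.311 for Fos per Junb and 0.856 for Junb per Jun, lay apart from replicates 2 and 3, which held 0.416 and 0.364, 0.231 and 0.205, and 1.80 and 1.77.

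**Figure D4:**
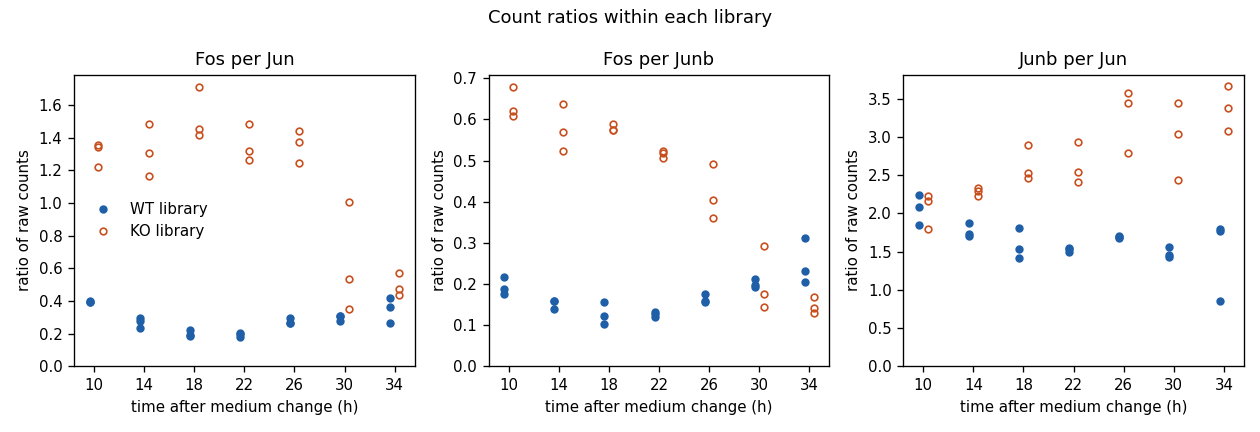
Ratio of raw counts of 2 genes within each library (y axis) against time after the medium change (x axis, h), filled points for WT and open points for KO. In KO, Fos per Jun had a mean of 1.35 at T26 and 0.495 at T34, and Junb per Jun a mean of 2.06 at T10 and 3.38 at T34.

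Over the single times, 24 of the 35 tests of KO against WT passed (13 higher, 11 lower), and at 26 of the 35 the libraries did not overlap. The share of all genes without overlap was not computed, so the 26 says nothing particular about these genes. At T10 3 of the 5 genes passed, beside 69.6% of all genes; at T14 1 passed, beside 70.9%; at T18 5, beside 68.9%; at T22 4, beside 70.5%; at T26 5, beside 70.3%; at T30 2, beside 73.0%; and at T34 4, beside 60.7%. The members' share was above that background at T18, T22, T26 and T34 and below it at T10, T14 and T30, and the difference was not tested.

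Change over time was rarer among all genes at the early times. In WT the count of members that differed from T10 was 0 at T14 beside 1.56% of all genes, 2 at T18 beside 7.44%, 2 at T22 beside 13.2%, 3 at T26 beside 13.5%, 2 at T30 beside 17.7% and 3 at T34 beside 37.9%. In KO it was 0 at T14 beside 0.0363%, 0 at T18 beside 0.537%, 0 at T22 beside 1.33%, 0 at T26 beside 4.62%, 1 at T30 beside 19.1% and 3 at T34 beside 34%. For the counts of 0 in edgeR, 2 genes had an unadjusted p under 0.05 in WT at T14, and 0, 1, 0 and 2 genes in KO at T14, T18, T22 and T26; DESeq2 called 1 gene in WT at T14 and 0 in each of the KO cases. All of these comparisons share the T10 libraries of their genotype. Over the 7 times together, Fos, Junb and Myc passed in WT, beside 37.5% of all genes, and Fos, Jun and Myc in KO, beside 36.8%. Without the T10 libraries the calls for Junb in WT (adjusted p = 0.454) and Jun in KO (adjusted p = 0.110) were lost. The WT tests gave adjusted p = 2.90e-05 for Fos, 4.29e-04 for Junb and 1.46e-07 for Myc without WT T34 replicate 1.

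**Figure D5:**
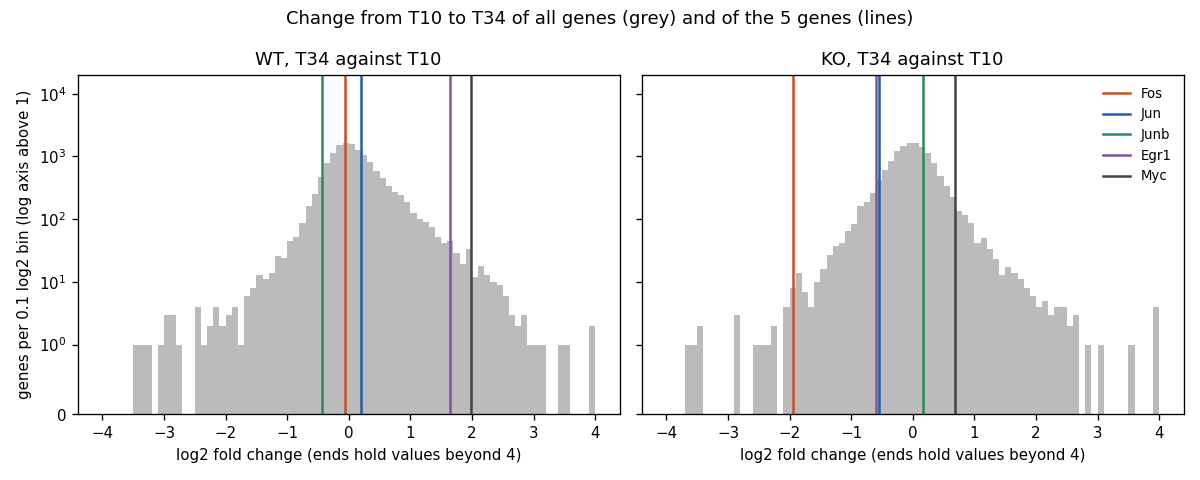
Number of genes per 0.1 bin (y axis, log axis above 1) by log2 fold change from T10 to T34 (x axis), for WT and KO, with a line for each of the 5 genes. Fos lies at -0.06 in WT and -1.94 in KO, and Myc at 1.98 in WT (1.21 without WT T34 replicate 1) and 0.68 in KO.

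The interaction of genotype and time passed for Fos, Jun and Junb, beside 39.3% of all genes. The added contrast of the KO effect at T22 minus that at T10 passed for Fos and Junb, beside 6.45% of all genes, and the contrast of T34 minus T22 for Fos, Jun and Egr1, beside 35.3%. For Jun the last value was -0.55 (SE 0.21, adjusted p = 0.0358) and -0.18 without WT T34 replicate 1 (adjusted p = 0.311); any of 8 single libraries left out lost that call, and any of 6 lost the one for Egr1.

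A 24 h cosinor asks whether a level follows a cosine with that period. In WT, Fos was the only member to pass (edgeR adjusted p = 1.56e-04), beside 1.81% of all genes, and had the 2nd smallest p of the 13776. Its amplitude, the distance from the fitted mean to the peak, was 0.52 on the log2 scale, with the fitted peak at 32.5 h. In KO, Fos (amplitude 0.59, peak 18.3 h, adjusted p = 0.0461) and Myc (amplitude 0.38, peak 31.2 h, adjusted p = 0.00618) passed, beside 34.6% of all genes. The cosine differed between the genotypes for Fos (adjusted p = 0.00206), beside 13.1% of all genes, and for no other member. Without WT T34 replicate 1 the WT call of Fos held (adjusted p = 2.67e-05), and the cosine differed for Fos (adjusted p = 0.00110) and Junb (adjusted p = 0.0249, against 0.0938 with it). The series covers 1 period, so no cycle was seen again, and the Fos levels at T10 and T34, which share a phase, were 15.3 and 3.99 CPM in KO. The Myc levels in KO at these times were 14.8 and 23.7 CPM. The KO Fos call was lost when any of 17 single libraries was left out, at adjusted p up to 0.0939. Leaving out all libraries of replicate number 2 or of number 3, with 2 libraries a group left, lost the WT call of Fos (edgeR adjusted p up to 0.171). The call for a difference of its cosine between the genotypes was lost in the same 2 fits. So were the KO calls of Fos and Myc. With the T34 libraries left out, WT Junb (adjusted p = 0.0293), WT Myc (adjusted p = 0.00656) and KO Jun (adjusted p = 0.0157) also passed. The times left, T10 to T30, cover less than 1 period of 24 h, and the share of all genes that passed in this fit is not given here.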

How the data were processed

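RNA from 42 GH4C1 samples was sequenced as strand-specific paired reads, per the labels' protocols. The authors deposited a table of raw counts per gene for each genotype; featureCounts is named in the submitters' processing notes, and the aligner, build, annotation and strand setting are not given in the sources used here. Both tables list the same 13776 genes, of which 0 could be paired with a symbol through the reference genes, so lists of related genes, Neat1 and marker genes were not analysed here. The 5 genes and all lists were chosen with earlier results of these data known; the rule for naming genes was to describe all 5. Each library had 34.5 to 68.8 M counts. The smallest chi-square per degree of freedom between replicates was 5.60, so no library was a duplicate of another in its group. Libraries of different groups were not compared in this way.

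Tests used edgeR 4.0.16 (R 4.3.3): quasi-likelihood F tests on the counts, TMM scaling, a mean for each of 14 groups, and for rhythms a cosine and a sine term of 24 h, with Benjamini-Hochberg adjustment over all genes and a threshold of 0.05. The filter filterByExpr removed 0 genes. Procedures were tested on simulated data. Alternatives were other scalings and filters, DESeq2 1.42.0, the replicate number as a block, fits of fewer libraries or times, and leaving out each library.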

Additional observations from a re-analysis of the deposited data

Results flagged for a closer look

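The following results differ between groups, here between the genotypes over time, by a test of the difference itself (edgeR, adjusted over all 13776 genes). The interaction of genotype and time had an adjusted p of 3.28e-10 for Fos, 0.0411 for Jun and 7.56e-04 for Junb. The KO effect grew from T10 to T22 by 0.90 (log2) for Fos and 0.61 for Junb, which for Junb was a change from lower to higher in KO (with library totals, from -0.63 to -0.02). From T22 to T34 the KO effect changed by -2.78 for Fos, -0.55 for Jun and -1.73 for Egr1. Without WT T34 replicate 1 these 3 values were -2.66, -0.18 and -0.60, and the call held for Fos only. The difference of the 24 h cosinor between the genotypes had an adjusted p of 0.00206 for Fos, a call lost without the libraries of replicate number 2 or of number 3.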

How the results depend on the processing

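KO against WT over all times kept its direction and call for Fos, Jun, Egr1 and Myc under every alternative run, and for Junb under all but library totals (-0.11). Other sign changes with library totals were Myc at T10 (-0.21) and Junb at T14 (-0.25), T22 (-0.015) and T26 (-0.0020). The near-zero change of the Junb effect from T22 to T34 turned to 0.0014 with the median-of-ratios scaling, 0.046 with library totals, 0.00049 with DESeq2 and 0.039 with totals that leave out the 2 most raised genes (chosen after seeing the data). DESeq2 called 5 interactions in place of 3. A fit of the 21 KO libraries alone called 10 of 30 later KO times against T10 in place of 4, and the WT cosinor without the T34 libraries called 3 genes in place of 1. The shares of all genes under the alternatives are not given here, so changes in these counts may not be particular to the members. Whether the replicate number of the labels pairs the samples could not be settled. Of 21 pairs of same-numbered libraries, 3 correlated above 0.1 (median 0.0096, highest 0.227). Among the 21 WT libraries, 10 correlated best with the KO library of their own number. With the replicate number as a block, the KO cosinor called 1 gene in place of 2.

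Leaving out each library, or all libraries of a replicate number (which leaves 2 per group and so fewer degrees of freedom), gave 13 to 28 calls of 35 for KO against WT at each time, 6 to 15 of 30 for later WT times against T10, 2 to 9 of 30 for KO and 1 to 4 of 5 for change in KO. It gave 2 to 5 interactions, 0 to 1 WT cosinor calls, 0 to 2 KO cosinor calls and 0 to 2 cosinor differences. The most KO calls against T10 (9) came without WT T34 replicate 1. Differences that changed sign were those of KO against WT for Junb at T14 (-0.053 to 0.13), Fos at T30 (-0.037 to 0.62) and Egr1 at T34 (-1.74 to 0.14). Against T10 in WT they were Jun at T14 (-0.16 to 0.066), T18 (-0.077 to 0.023), T22 (-0.095 to 0.014), T30 (-0.010 to 0.12) and T34 (-0.18 to 0.37) and Fos at T34 (-0.18 to 0.061). Against T10 in KO they were Fos at T14 (-0.12 to 0.059), Jun at T14 (-0.11 to 0.0047) and Egr1 at T22 (-0.064 to 0.65) and T30 (-0.23 to 0.48). For the change of the KO effect from T22 to T34 they were Myc (-0.86 to 0.20) and Junb (-0.12 to 0.12). Beyond these constructions the cause was not tested. The filter at a mean of 10 CPM removed both Fos and Egr1 and gave no counts over the 5 genes; the genes most like a member were not analysed here. Depth limits Egr1 most, at 10 to 125 counts a library.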

Other observations

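The library that stands apart did not differ in the same way for the 5 genes. WT T34 replicate 1 held 4.48 times the mean Egr1 of the other 2 WT T34 libraries, 3.10 times their Myc, 1.88 times their Jun and 1.28 times their Fos, but 0.902 times their Junb. Its Egr1, Myc and Jun values were the highest among all 42 libraries, and its Junb was 20.7 CPM beside 20.6 to 33.4 CPM over the 21 WT libraries. Its Junb per Jun count ratio was 0.856, beside 1.42 to 2.25 in the other WT libraries. What set this library apart was not tested.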
